A study of Mus musculus with 4 samples.

Results

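Cultured mouse hippocampal neurons carrying a short hairpin RNA (shRNA) against Kdm6b were compared with cultures carrying the empty virus, both without stimulation. The cells came from the hippocampi of newborn (P0) CD1 pups, an outbred strain, and were grown for 11 days in vitro in Neurobasal medium with B27. Lentivirus was added on day 4, either pLKO.1 (vector) or a virus making the Kdm6b shRNA, and the untreated dishes were harvested on day 11. The comparison rests on 2 of the 4 libraries of the study, 1 per condition. The other 2 libraries hold the same 2 viruses in dishes given bicuculline (the labels write 50µm, read here as micromolar) with 4-aminopyridine (4AP) at 2.5 mM for 3 h (Bic/4AP), drugs that raise synaptic firing. They serve here as another pair of cultures in another state, and not as replicates.

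Levels are FPKM, fragment numbers scaled to transcript length and sequencing depth, as computed by the authors from polyA RNA. A difference is log2(FPKM + 1) with the hairpin minus log2(FPKM + 1) with vector, and it understates the fold change of weakly expressed genes. An FPKM of 1 or more in either untreated library was required, which held for 13295 of 22492 symbols, of which 21723 remained once failed and small RNA symbols were left out. A gene is called 2-fold higher or lower when its difference is at least 1 in size. With 1 library per condition there is no test, no p-value and no measure of the spread between cultures, so that every value below compares 2 libraries and not 2 conditions. The authors' lower and upper bounds of each FPKM cover counting and read assignment within a library only. The control virus carries no hairpin and a single hairpin was used, so the effect of losing Kdm6b, the effect of any hairpin and other effects of this hairpin cannot be told apart. The cultures hold several cell types, and fewer cells of a type cannot be told apart from less RNA per cell.

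KDM6B (JMJD3) is an enzyme that removes methyl groups from lysine 27 of histone H3. The trimethylated form, H3K27me3, is written by the Polycomb complex PRC2 and marks genes that are held silent, many of them regulators of development. KDM6B is known as a gene switched on by inflammatory signals in macrophages and by activity in neurons, and as a factor in the differentiation of neural progenitors.

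The hairpin in the labels is shown first, because its match to Kdm6b defines the comparison. Below it stands the best match in the Kdm6b transcript Kdm6b-201 (GENCODE mouse release 21), at positions 2842 to 2862 of 6654, inside the coding part. Capitals mark the bases that differ.
Hairpin in the labels: ctgttcttgagggacaaaCTC
Kdm6b transcript: ctgttcttgagggacaaaAGT
The match covered 18 of 21 bases, with the differences C19A, T20G and C21T counted from the 5′ end of the hairpin sequence in the labels. No annotated transcript of another gene (0) held those 18 bases.

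Kdm6b lies on chromosome 11 from 69212020 to 69227177 (build mm9, as for all gene positions below unless another is named). Its FPKM was 6.74 (authors' bounds 6.44 to 7.04) with vector and 2.73 (2.55 to 2.92) with the hairpin. The untreated hairpin library thus held 40.6% of the vector level (36.2% to 45.3% from the bounds). In the Bic/4AP pair the values were 13.1 and 4.83. The bounds did not overlap in either pair, and the difference of -1.05 placed Kdm6b 72nd from the lowest of all genes compared.

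None of its relatives was 2-fold apart. Kdm6a (UTX), the other H3K27 demethylase, was at 5.63 with vector and 6.95 with the hairpin (difference 0.26), and its Y-linked copy Uty differed by 0.04. Of the PRC2 subunits, Ezh2, the methyltransferase of dividing cells, went from 5.20 FPKM with vector to 7.51 with the hairpin (0.46, and 0.17 in the Bic/4AP pair). Ezh1, its counterpart in non-dividing cells, differed by 0.03, Eed by 0.13 and Suz12 by -0.28. Kdm6b was the single member 2-fold apart among the 16 genes of this list, whose median was 0.03, a value that changes sign with the scaling. Bounds were separate for 5 higher members and for 4 lower ones, Kdm6b among the lower. The median of 14 other histone lysine demethylases was 0.16. Of 53 developmental regulators listed as typical H3K27me3 targets, 42 stayed below an FPKM of 1 in both untreated libraries, 11 of them listed at 0 with vector and 8 with the hairpin. The 11 that were compared had a median of 0.15, none 2-fold apart, from Cdkn1c (-0.35) to Msx1 (0.45).

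The hairpin library was shifted slightly upwards and had more genes far below than far above the vector library. Of the 13295 genes, 55 were 2-fold higher (0.414%) and 89 were 2-fold lower (0.669%). The median difference was 0.05, with 7826 genes (58.9%) above 0 and 5469 (41.1%) below, and 8916 genes (67.1%) lay within 0.25 of 0. The authors' bounds of the 2 libraries did not overlap for 7345 genes (55.2%), 33.1% higher and 22.2% lower, so that separate bounds were common and are read here only beside these shares. When libraries were scaled to a common sum over all symbols with small RNA included, 65 were 2-fold higher and 67 lower. Small RNA symbols took 9.89% of summed FPKM in the vector library and 4.97% in the hairpin library, and the common sum is the scaling that counts them.

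**Figure D1:**
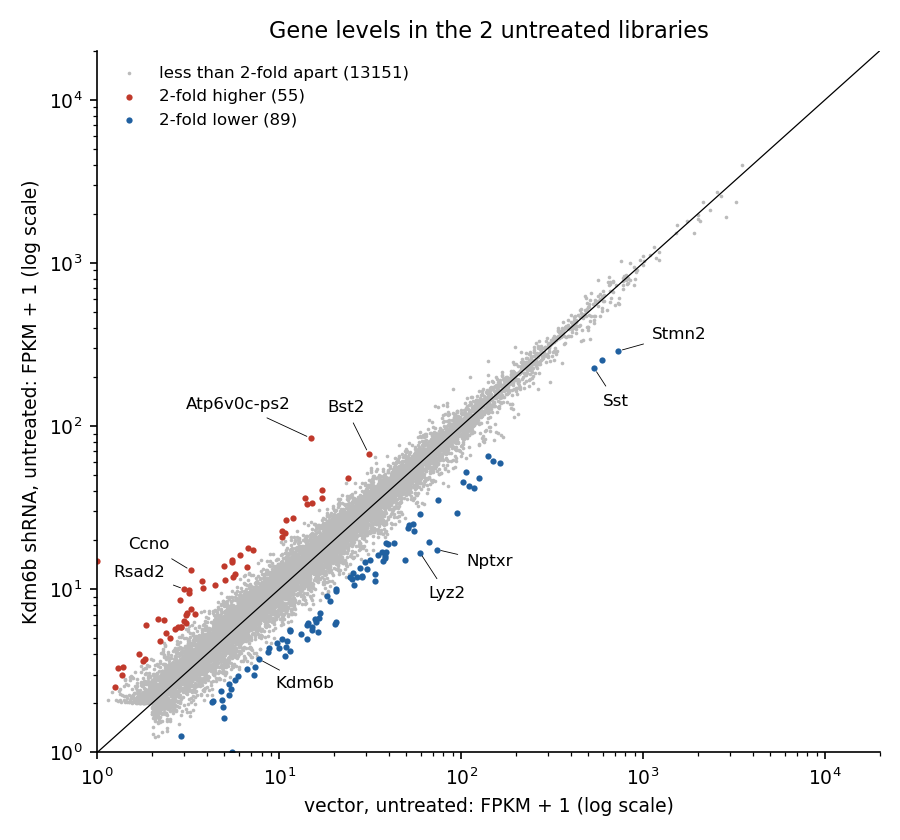
FPKM + 1 in the untreated hairpin library (vertical log axis) against FPKM + 1 in the untreated vector library (horizontal log axis), 1 point for each of the 13295 genes, with the 55 genes 2-fold higher and the 89 genes 2-fold lower coloured. Most points lie along the diagonal, and the lower genes reach further into the highly expressed range than the higher ones.

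Most of the highly expressed called genes were lower. Among 875 genes with a mean of at least 100 FPKM over the 2 libraries, 6 were 2-fold lower and 0 higher. Among 3867 genes at 20 to 100, 30 were lower and 8 higher. Among 2126 genes at 2 to 5, 16 were lower and 17 higher, and below 2 FPKM the counts were 1 and 7 of 1228. Locus length also differed: the 773 genes over 200 kb had a median of -0.03, with 45.5% above 0, against 0.05 to 0.06 in the 3 classes under 50 kb. Genes just inside the 2-fold limit were Dnaic2 and Ttc29 (1.005 and 1.006) and Tppp and Ramp3 (-1.005 and -1.010), and those just outside were Slc17a8 (0.997), Spc25 (0.990), Mmp2 and Sspn (both -0.987). Of the called genes, 34 of 55 higher and 30 of 89 lower belonged to at least 1 of 53 lists of pathways and cell types. The lists were chosen with earlier results of these data known, and the share of all genes compared that belong to a list was not counted. These counts therefore only state how many called genes the lists cover.

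Interferon-stimulated genes stood higher with the hairpin. Interferons are secreted antiviral signals: sensors of foreign nucleic acid start their synthesis, their receptors signal to transcription factors such as IRF9, and these drive effectors that block viral replication. The interferon genes themselves were at or near 0. Ifna2, Ifna4, Il28a and Il28b were listed at 0 in all 4 libraries, and Ifnb1 stood at 0.037 FPKM with vector and 0.036 with the hairpin. Ifng was at 0.021 with vector and 0.221 with the hairpin. Of the receptor chains, Ifnar1 differed by 0.01, Ifnar2 by 0.14, Ifngr1 by 0.13 and Il10rb by -0.06, and the receptor kinases Jak1 and Tyk2 by 0.04 and 0.22. The one farthest from 0 was Ifngr2, a chain of the interferon gamma receptor, at 56.0 FPKM with vector and 33.1 with the hairpin (-0.74).

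Sensors of cytosolic RNA stood higher. Of 10 sensors and adaptors compared, 8 were above 0 (58.9% of all genes), with a median of 0.42 beside 0.05 over all genes, and 0.06 with Bic/4AP. The other 7 stayed under 1 FPKM in both untreated libraries, among them Tlr7 (0.362 with vector, 0.193 with the hairpin), the DNA-sensing adaptor Tmem173 (0.912 and 0.595) and Zbp1 (0.375 and 0.733), and with no filter on low values the median was 0.01. Dhx58 (LGP2), an RNA helicase of the RIG-I family, was at 1.29 FPKM with vector and 3.32 with the hairpin (0.92). Ddx58 (RIG-I itself) differed by 0.63, Ifih1 (MDA5) by 0.58 and Trim25, the ligase that activates RIG-I, by 0.64. Unc93b1, the chaperone of endosomal Toll-like receptors, differed by -0.13. Of 13 signalling factors, 11 were above 0 and 3 were 2-fold higher (0.414% of all genes), with a median of 0.46. Irf7, the factor that amplifies interferon synthesis, was at 2.21 FPKM with vector and 8.55 with the hairpin untreated, and at 3.66 and 6.80 with Bic/4AP. Usp18, which removes ISG15 from proteins and damps receptor signalling, was at 5.11 and 15.3 untreated and at 7.99 and 11.6 with Bic/4AP. Both were highest in the untreated hairpin library and lowest in the untreated vector library. Socs1 (-0.21) and Tbk1 (-0.04) were the members below 0.

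The antiviral effectors stood higher nearly without exception. Of 47 compared, 46 were above 0 (58.9% of all genes) and 42 had separate bounds and were higher (33.1%). In all, 12 were 2-fold higher (0.414% of all genes), and the median was 0.61. Rsad2 (viperin), which makes a chain-terminating nucleotide, was at 2.01 FPKM with vector and 9.0 with the hairpin (1.73), and at 4.41 and 8.55 with Bic/4AP (0.82). Ifi44 was at 2.21 and 8.86 (1.62), and at 2.85 and 6.54 with Bic/4AP (0.97). Ifit1, which binds viral RNA lacking the host cap, was at 4.49 and 14.1 (1.46), and at 8.43 and 11.0 with Bic/4AP (0.34). Isg15, a ubiquitin-like modifier, was at 12.8 and 35.3 (1.39), and at 20.4 and 26.0 with Bic/4AP (0.34). Bst2 (tetherin), which holds budding virus at the cell surface, was at 29.998 and 66.8 (1.13), and at 40.3 and 53.9 with Bic/4AP (0.41). In each of these 5 the untreated vector library was the lowest of 4 and the untreated hairpin library the highest. The other 2-fold members were Iigp1 (1.42), Rtp4 (1.42), Oasl2 (1.28), Oas1a (1.27), Ifi27l2a (1.22), Ifit3 (1.14) and Xaf1 (1.08). The lowest were Ifitm2 (-0.20), Isg20 (0.05), Gbp2 (0.06) and Ifitm1 (0.15).

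The same list differed less in the Bic/4AP pair. Its median there was 0.18, with 35 of 47 above 0 (56.4% of all genes in that pair) and 0 of 47 2-fold higher. The summed FPKM of all 58 members with a value, compared or not, was 591 with vector and 870 with the hairpin untreated (147%). With Bic/4AP it was 782 and 800.1 (102%), so the vector libraries differed from each other more than the hairpin libraries did. No test of the difference between the pairs was possible. Genes of MHC class I presentation, also interferon-responsive, had a median of 0.25 untreated and 0.05 with Bic/4AP, with 18 of 20 above 0 untreated (58.9% of all genes). Tapbp (tapasin) differed by 0.67, Tap1, the peptide transporter, by 0.62, and Psmb9, an immunoproteasome subunit, by 0.58. Other inflammatory and NF-kB genes did not share the direction: their median over 24 genes was -0.03, with a sign that depended on the scaling. The chemokine Cxcl10, which interferon also drives, was at 3.99 FPKM with vector and 12.9 with the hairpin (1.48), while Cxcl14 was at 32.7 and 10.2 (-1.59).

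Promoters of the effectors were searched for the core of the interferon-stimulated response element, a site bound by complexes that hold IRF9, spelled GAAANNGAA on either strand. RefSeq promoters (GRCm38.p6, 250 bases before to 50 after a start, 300 in all) matched 10466 of the 13295 genes (78.7%). The word stood in a promoter of 23 of 38 effectors (60.5%), of 8.29% of all matched genes, and in 8.56% of all 32851 promoter windows. Effectors with it had a median difference of 0.86 and those without it 0.46. Among the called genes with a promoter it stood in 11 of 39 higher (28.2%) and 6 of 61 lower (9.84%). A stretch around the word is shown for 4 of the effectors, 5′ to 3′ on the strand of the gene, with every base of a matching word in capitals on whichever strand it lies.
Rsad2, chr12:26456543-26456591, minus strand: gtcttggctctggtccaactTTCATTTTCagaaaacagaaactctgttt
Ifi44, chr3:151749885-151749933, minus strand: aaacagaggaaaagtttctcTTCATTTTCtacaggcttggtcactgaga
Isg15, chr4:156200868-156200916, minus strand: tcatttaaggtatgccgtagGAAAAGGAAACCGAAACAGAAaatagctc
Oas1a, chr5:120907517-120907565, minus strand: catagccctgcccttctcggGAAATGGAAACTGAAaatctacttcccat
Isg15 and Oas1a carry overlapping copies, and Rsad2 and Ifi44 a single copy each in the stretch shown. A match describes the letters only.

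Genes of multiciliated cells formed another group of higher genes. Ependymal cells of the brain ventricles carry many motile cilia: geminin-related MCIDAS and GMNC start the programme, MYB and CCNO drive the multiplication of centrioles, DEUP1 and PLK4 build them, and FOXJ1 and RFX factors switch on the axoneme genes. Of 20 commitment genes compared, 18 were above 0 (58.9% of all genes), 17 with separate bounds (33.1%), and 6 were 2-fold higher (0.414%). The median was 0.60 untreated and 0.52 with Bic/4AP. Ccno was at 2.26 FPKM with vector and 12.1 with the hairpin (2.003), and at 16 and 29.8 with Bic/4AP (0.86). Gm6320, a RefSeq synonym of Mcidas, was at 0.853 and 5.06 (1.71), and at 0.715 and 3.70 with Bic/4AP (1.45). These 2 genes are neighbours on chromosome 13, from 113778010 to 113780986 and from 113784076 to 113790602, with 3089 bases between them. Myb was at 2.79 and 10.2 (1.56), and at 2.81 and 10.2 with Bic/4AP (1.55). Ccna1, a cyclin, was at 3.46 and 9.595 (1.25), Ccdc67 (Deup1) at 4.06 and 10.4 (1.17), and Plk4 at 2.06 and 5.22 (1.03). In all 6, both hairpin libraries stood above the vector library of their own pair. Foxj1 was high in both untreated libraries and differed less, at 166 and 205 (0.30). E2f4 (-0.03) and Cep63, which rounds to -0.00, were the 2 members below 0.

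The structural genes of the motile cilium stood higher without exception. All 52 compared were above 0 (58.9% of all genes were), 50 with separate bounds (33.1% of all genes), in a range from 0.15 to 1.01 with a median of 0.52. In the Bic/4AP pair all 52 were again above 0, with a median of 0.39. The summed FPKM of all 53 members with a value, compared or not, was 931 with vector and 1386 with the hairpin (149%). With Bic/4AP it was 1060.0 and 1418 (134%). Dnaic2, an intermediate chain of the outer dynein arm, was the single 2-fold member, at 9.38 and 19.8. A list of ependymal and choroid plexus markers had 11 of 14 above 0 and a median of 0.25. The summed FPKM of all 15 of its members, compared or not, was 737 with vector and 823 with the hairpin. Ttr, which marks choroid plexus epithelium, was lower (-0.36), and the dynein light chain Dynlrb2 was the highest of them (0.89). The list overlaps the cilium and commitment lists: the 6 shared genes, Dynlrb2 among them, were all above 0, and of the other 8, 5 were above 0, with a median of 0.10.

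Promoters of the cilium genes were searched for GTTGCCNNG on either strand, part of the X-box bound by RFX factors, a word added after the list was seen to be higher. It stood in 14 of 44 cilium genes (31.8%) and 6 of 16 commitment genes (37.5%) with a promoter, beside 7.20% of all matched genes and 5.004% of all windows. Among the called genes with a promoter, the word stood in 7 of 39 higher (17.9%) and 9 of 61 lower (14.8%), both above the share of all matched genes. Cilium genes with and without it differed by medians of 0.49 and 0.51. Over all matched genes the medians were 0.13 with the word and 0.05 without.

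Genes of mitosis were higher as well. Their levels were low in all 4 libraries. As background, several of their products also serve centriole multiplication. Of 44 genes of the G2 phase and mitosis compared, 43 were above 0 (58.9% of all genes), 38 with separate bounds (33.1%). Of the 44, 9 were 2-fold higher (0.414% of all genes), and the median was 0.60 untreated and 0.53 with Bic/4AP. The 16 members under 1 FPKM in both libraries, among them Mki67 (0.413 with vector, 0.877 with the hairpin) and Bub1 (0.316 and 0.722), reached at most 0.916 with the hairpin. Ckap2l, a spindle protein, was at 1.86 FPKM with vector and 7.61 with the hairpin (1.59), and at 2.28 and 8.03 with Bic/4AP (1.46). Pbk, a mitotic kinase, was at 1.17 and 5.53 (1.59), and at 1.69 and 4.69 with Bic/4AP (1.08). Ube2c, the ubiquitin carrier of the anaphase-promoting complex, was at 2.83 and 9.24 (1.42), and at 2.75 and 7.14 with Bic/4AP (1.12). Cdk1, the kinase that starts mitosis, was at 2.09 and 5.92 (1.16), and at 2.25 and 6.13 with Bic/4AP (1.13). In these 4 both hairpin libraries stood above both vector libraries. The summed FPKM of all 60 members, the 16 under 1 FPKM included, was 116.8 with vector and 202 with the hairpin (173%). Genes of the G1 to S transition and of replication differed less, with 29 of 34 above 0 (58.9% of all genes), 0 of them 2-fold apart and a median of 0.24. Rrm2, a subunit of ribonucleotide reductase, went the other way, at 3.00 and 1.26 (-0.82), and at 3.49 and 1.06 with Bic/4AP (-1.13).

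Mitotic promoters often carry the cell cycle genes homology region (CHR), the site of the DREAM and MuvB complexes, spelled TTTGAA and searched on either strand. It stood in a promoter of 27 of 36 genes of the mitosis list (75%), of 13.7% of all matched genes, and in 17.9% of all windows. Members with it had a median of 0.67 and those without it 0.55. It stood in 9 of 39 called higher genes (23.1%) and 9 of 61 lower ones (14.8%). The stretch around it is shown for 4 of the higher genes, with the word in capitals.
Ckap2l, chr2:129297217-129297262, minus strand: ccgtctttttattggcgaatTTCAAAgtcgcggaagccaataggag
Ube2c, chr2:164769880-164769925, plus strand: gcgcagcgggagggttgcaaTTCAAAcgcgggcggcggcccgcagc
Top2a, chr11:99024343-99024388, minus strand: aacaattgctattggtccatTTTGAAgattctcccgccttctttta
Cdk1, chr10:69352958-69353003, minus strand: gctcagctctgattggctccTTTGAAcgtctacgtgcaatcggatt
In the stretches shown, Ckap2l and Ube2c carry the word on the opposite strand and Top2a and Cdk1 on the strand of the gene. The promoters of Ckap2l, Top2a and Cdk1 hold 2 copies each, of which 1 is shown. For comparison, the NF-kB word GGGANTTTC stood in 1.11% of matched genes, in 2 of 39 higher and 0 of 61 lower genes.

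**Figure D2:**
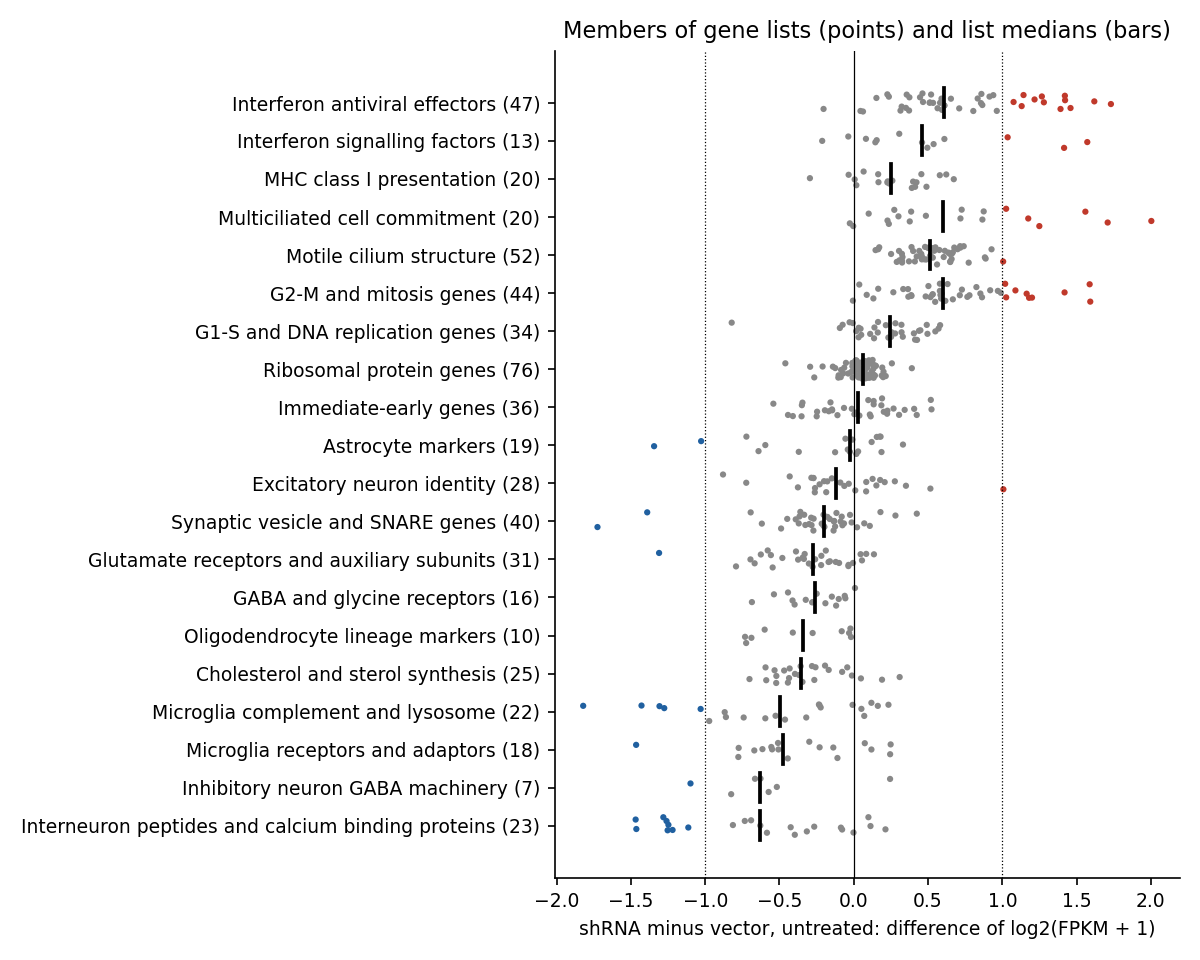
Differences (hairpin minus vector, log2(FPKM + 1), horizontal axis) of the members of selected gene lists in the untreated pair, 1 point per gene and a black bar at each list's median, with the number of genes in brackets, members 2-fold apart coloured and dotted lines at 1 and -1. The antiviral, multiciliated, motile cilium and mitosis lists have medians of 0.52 to 0.61, and the interneuron peptide and GABA lists have medians of -0.63.

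Markers of inhibitory neurons were lower. Hippocampal interneurons release GABA and are told apart by the peptides and calcium-binding proteins they make. Of 7 genes of GABA synthesis, packaging and uptake, 6 were below 0 with separate bounds (22.2% of all genes), with a median of -0.63. Gad1, the enzyme that makes most GABA, was at 139 FPKM with vector and 64.5 with the hairpin (-1.10), and at 146 and 88.0 with Bic/4AP (-0.72). Slc32a1, the vesicular transporter, was at 63.9 and 42.6 (-0.57). Gad2, the other synthetic enzyme, differed by -0.52. Aldh5a1, which breaks GABA down and is found in many cells, differed by 0.24.

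The peptides reached lower still. Of 23 interneuron peptides and calcium-binding proteins, 20 were below 0 (41.1% of all genes) and 8 were 2-fold lower (0.669%), with a median of -0.63. Sst (somatostatin), the most abundant, was at 539 FPKM with vector and 225 with the hairpin (-1.25), and at 542 and 413 with Bic/4AP (-0.39). Cort (cortistatin), its relative, was at 9.72 and 2.87 (-1.47), and at 12.3 and 6.33 with Bic/4AP (-0.87). Npy (neuropeptide Y) was at 162 and 58.2 (-1.46), and at 179 and 102 with Bic/4AP (-0.80). Cck (cholecystokinin) was at 148 and 60.4 (-1.28), and at 145 and 62.4 with Bic/4AP (-1.20). The untreated hairpin library was the lowest of 4 for all of these, and for Cck the hairpin library with Bic/4AP stood close to it. Tac1, the substance P precursor, differed by -1.26, Grp by -1.25, Tac2 by -1.22 and Crhbp, which binds corticotropin-releasing hormone, by -1.11. Some members stood near their vector level: of the calcium-binding proteins, Calb2 (calretinin) was at 57.3 and 57.2 and Pvalb (parvalbumin) differed by -0.09, and of the peptides, Vip was at 2.18 and 2.44. The summed FPKM of all 24 members, compared or not, was 1178 with vector and 586 with the hairpin (49.8%), and 1240 and 938 with Bic/4AP (75.6%). Interneuron transcription factors were nearer to 0, with a median of -0.19 over 20 genes. Dlx6 was at 3.81 and 1.37 (-1.02), Lhx6, a factor of somatostatin and parvalbumin cells, differed by -0.50 and Sox6 by 0.58.

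Several of these peptides also belong to a list of late genes of neuronal activity, which respond to firing hours after the immediate-early genes. That list had 23 of 30 members below 0 untreated (41.1% of all genes) and a median of -0.30. In it 4 members were 2-fold lower (0.669% of all genes): Cort, Npy, Sst and Pcsk1. With Bic/4AP its median was 0.15. Pcsk1, the convertase that cuts peptide precursors, was at 7.67 FPKM with vector and 3.14 with the hairpin untreated (-1.07), and at 19.5 and 25.2 with Bic/4AP (0.36). The immediate-early genes had a median of 0.03 over 36 genes and the survival genes 0.04 over 12, both with signs that depended on the scaling.

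Microglial genes were also lower. Microglia are the resident macrophages of the brain and a small minority in such cultures. Of 22 genes of complement and the lysosome, 17 were below 0 (41.1% of all genes) and 5 were 2-fold lower (0.669%). The median was -0.49 untreated and -0.53 with Bic/4AP. The list is not specific to microglia: Apoe, for instance, is also in the list of astrocyte markers. Lyz2 (lysozyme) was at 58.4 FPKM with vector and 15.8 with the hairpin (-1.82), and at 69.4 and 22.5 with Bic/4AP (-1.59). C1qa was at 14.2 and 4.66 (-1.43), C1qc at 9.92 and 3.41 (-1.31) and C1qb at 6.26 and 1.997 (-1.28), the 3 chains of the complement starter C1q. Both hairpin libraries stood below both vector libraries for these 4 genes. Of 36 receptors and adaptors, 18 were compared and 14 of them were below 0 (41.1% of all genes), with a median of -0.48 untreated and -0.56 with Bic/4AP. The untreated median was -0.19 with a pseudocount of 5 and -0.23 with no filter on low values. Tyrobp (DAP12), the adaptor of TREM2, was at 10.5 and 3.17 (-1.46). The other 18 stayed under 1 FPKM in both untreated libraries, among them Csf1r (0.825 with vector, 0.444 with the hairpin), Itgam (0.955 and 0.230) and Siglech (0.019 and 0.018). Not every microglial gene was lower: P2ry12 was at 1.43 and 1.88, Cx3cr1 differed by -0.14 and Aif1 (IBA1) by -0.08. Ccl6 was at 3.98 and 0.621 (-1.62), in a list of transcription factors and chemokines whose median of -0.08 changed sign with the scaling. The summed FPKM of all 36 receptors and adaptors, compared or not, was 111 with vector and 81.8 with the hairpin (73.5%). That of the antiviral effectors was 147% of vector. No microglial receptor or adaptor was listed at 0 in either library.

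Other cell types were checked with their own markers. Oligodendrocyte lineage genes were below 0 in all 10 compared (41.1% of all genes), with a median of -0.34. That median was -0.10 with no filter on low values and -0.64 where separate bounds were required. Fibroblast and meningeal genes were below 0 in 15 of 17, with a median of -0.26. Astrocyte markers had a median of -0.03, with a sign that depended on the scaling, and 2 were 2-fold lower: Ntsr2 at 14.9 FPKM with vector and 5.28 with the hairpin (-1.34), and Cldn10 at 24.5 and 11.5 (-1.03). Neural progenitor markers had a median of 0.12 over 16 genes. Identity genes of excitatory neurons, the main cell type by label, had a median of -0.12 over 28 genes untreated and 0.12 with Bic/4AP, where 17 of 28 were above 0 (56.4% of all genes in that pair). Slc17a7 (VGLUT1), their vesicular glutamate transporter, was at 307 and 185 (-0.72). Wfs1, a marker of CA1 neurons, went the other way, at 23.05 and 47.3 (1.01), and at 23.2 and 41.3 with Bic/4AP (0.80). The part of these marker shifts in the results on cilia, mitosis, interferon and peptides was not tested.

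Genes of synapses and excitability were lower by smaller amounts. Of 40 genes of synaptic vesicles and SNARE fusion, 34 were below 0 (41.1% of all genes), with a median of -0.20 beside 0.05 over all genes. Of 31 glutamate receptor genes 27 were below 0 (-0.28), of 16 GABA and glycine receptor genes 15 (-0.26), of 32 potassium channel genes 25 (-0.25) and of 11 sodium channel genes 10 (-0.31). In the Bic/4AP pair the medians were nearer to 0, at -0.05 for vesicle genes, -0.11 for glutamate receptors, -0.12 for GABA and glycine receptors, -0.11 for potassium channels and -0.20 for sodium channels. Calcium channel genes had a median of -0.11 untreated and 0.07 with Bic/4AP. Single neuronal genes stood far lower. Nptxr, the neuronal pentraxin receptor, which clusters AMPA receptors, was the lowest gene that the naming rule allowed and belongs to a separate list of neuronal pentraxins, at 72.5 FPKM with vector and 16.5 with the hairpin (-2.07), and at 36.3 and 14.2 with Bic/4AP (-1.30). Snap29, a SNARE of autophagosome fusion, was at 19.2 and 5.10 (-1.72), and at 19.02 and 6.47 with Bic/4AP (-1.42). Scn3b, a beta subunit of sodium channels, was at 47.9 and 14.05 (-1.70), and at 37.7 and 12.5 with Bic/4AP (-1.52). Napb (beta-SNAP), which recycles SNAREs, was at 124 and 46.8 (-1.39), and Cacng2 (stargazin), which carries AMPA receptors to the synapse, at 15.5 and 5.67 (-1.31). For each of these 5, both hairpin libraries stood below both vector libraries. Stmn2, a microtubule protein of growing axons, was at 731 and 288 (-1.34), and at 644 and 277 with Bic/4AP (-1.21). Neurofilament and axonal genes had a median of -0.13 over 36 genes and postsynaptic scaffolds -0.13 over 33, against -0.00 and -0.02 with Bic/4AP.

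**Figure D3:**
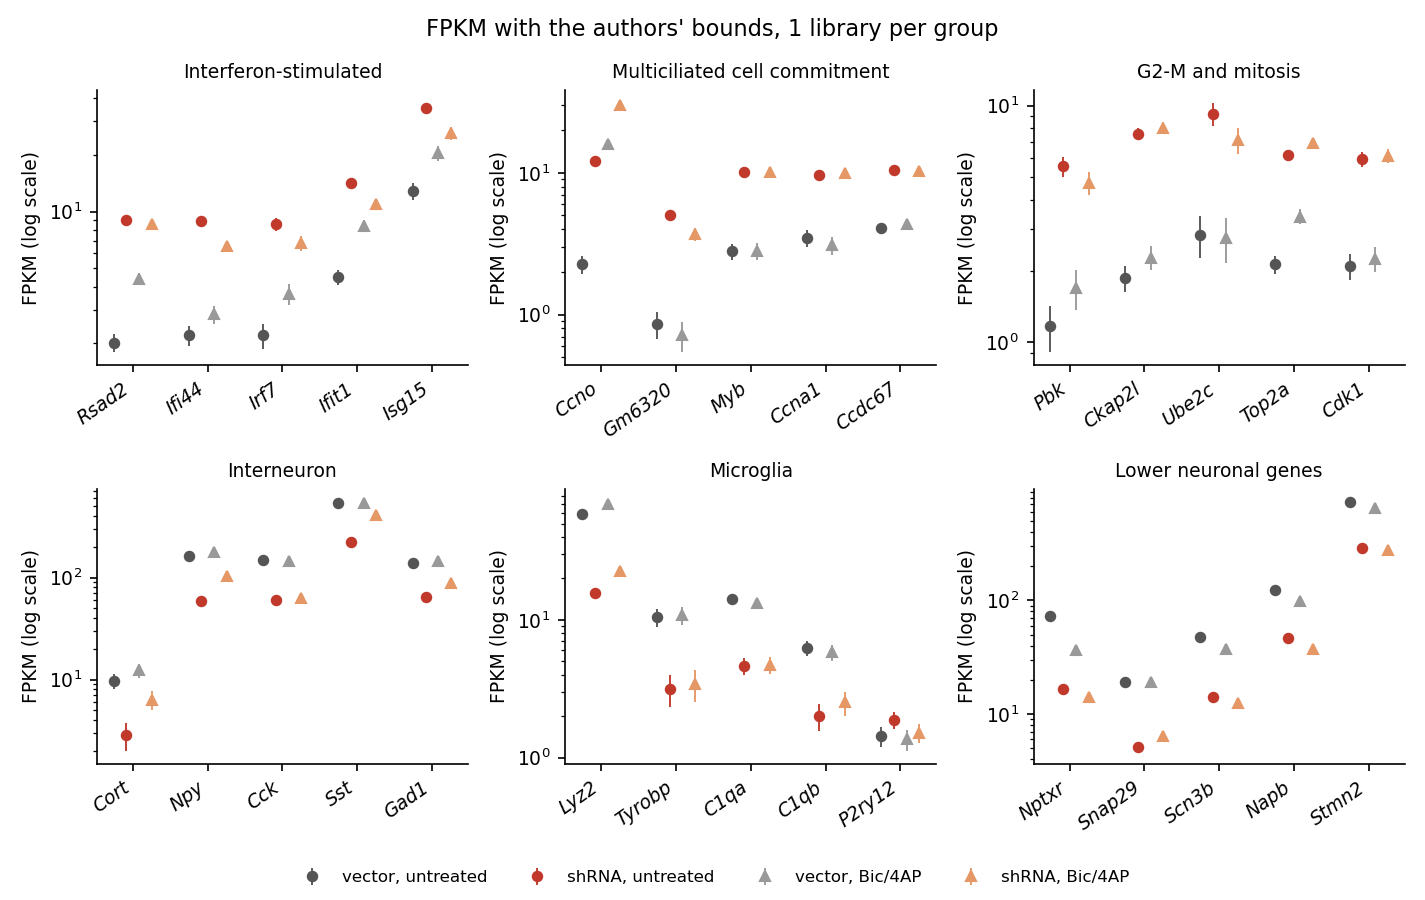
FPKM in the 4 libraries (log axis) of 5 named genes in each of 6 groups, with vector in grey, the hairpin in red or orange, untreated libraries as circles and Bic/4AP libraries as triangles. Vertical lines span the authors' bounds, which cover error within a library only. Interferon-stimulated genes have their lowest value in the untreated vector library, and Lyz2, C1qa, Snap29 and Scn3b have both hairpin values below both vector values.

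Lipid synthesis and housekeeping genes were described in the same way. Cholesterol synthesis genes had 22 of 25 members below 0 (41.1% of all genes) and a median of -0.36 untreated, against 0.03 with Bic/4AP. Fatty acid synthesis genes had a median of -0.11 over 17, with Acly, which makes cytosolic acetyl-CoA, at -0.98. Ribosomal protein genes had a median of 0.06 over 76 with 0 of them 2-fold apart, and oxidative phosphorylation genes 0.05 over 57, a sign that depended on the scaling. Of the 10 most abundant genes of the vector library, the iron store Fth1 differed by 0.17, Tmsb4x by -0.06, Dbi by 0.08 and Ppia by 0.16. Apoe, a lipoprotein that astrocytes and microglia make, differed by -0.60 and Cst3 (cystatin C) by -0.46, the farthest from 0 among the 10.

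Beyond the lists, 21 higher and 59 lower genes remain, and the following were chosen after their values were seen. Atp6v0c-ps2, a pseudogene of a proton pump subunit that shares sequence with its parent gene, was at 13.9 FPKM with vector and 83.5 with the hairpin untreated, but at 182 and 156 with Bic/4AP, so its counts are uncertain. Araf, a RAF kinase, was at 94.5 and 28.5 (-1.69), and at 82.8 and 24.0 with Bic/4AP (-1.74). Scrt1, a neuronal zinc finger repressor, was at 19.6 and 5.28 (-1.71), and Scand1 at 65.7 and 18.6 (-1.77). Hbegf, a growth factor of the EGF family, was at 54.3 and 21.8 (-1.28), and at 157 and 66.4 with Bic/4AP (-1.23). Becn1 (beclin 1), which starts autophagy, was at 50.4 and 23.8 (-1.05), and Cntn1 (contactin 1), an axonal adhesion protein, at 109 and 41.9 (-1.36). For all of these except Atp6v0c-ps2 the direction was the same in both pairs. Among higher genes, Lgals9 (galectin-9) was at 4.75 and 11.4 (1.11), Nppc, the precursor of C-type natriuretic peptide, at 11.0 and 26.2 (1.18), and Arrdc3, an arrestin-like protein, at 16.2 and 39.8 (1.24). Gm12238, at a locus of 124 bases, was listed at 0 with the hairpin, and LOC100302567, of 94 bases, at 0 with vector, and such short loci are unreliable in FPKM.

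The Bic/4AP pair shares no library with the untreated pair, although it shares the hairpin and the vector. Across 13077 genes compared in both, Pearson's r between the differences was 0.771 and Spearman's rho 0.754, over genes that are not independent replicates, and 79.0% had the same sign. Of the 144 genes 2-fold apart untreated, 135 had the same sign with Bic/4AP (93.75%, exact 95% binomial interval 88.5% to 97.1%, for counting only, since genes are not independent). In that pair 25 of 13240 genes were 2-fold higher (0.189%) and 71 lower (0.536%). The lower genes were closer in size between the pairs: of 89, 51 were 2-fold lower there too (57.3%), with medians of -1.20 untreated and -1.07 with Bic/4AP. Of 55 higher genes 10 were 2-fold higher there, with medians of 1.20 and 0.75. The genes were chosen for their size untreated, and such a choice alone tends to give smaller sizes elsewhere. The size was smaller with Bic/4AP for 54 of 55 higher and 71 of 89 lower genes.

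**Figure D4:**
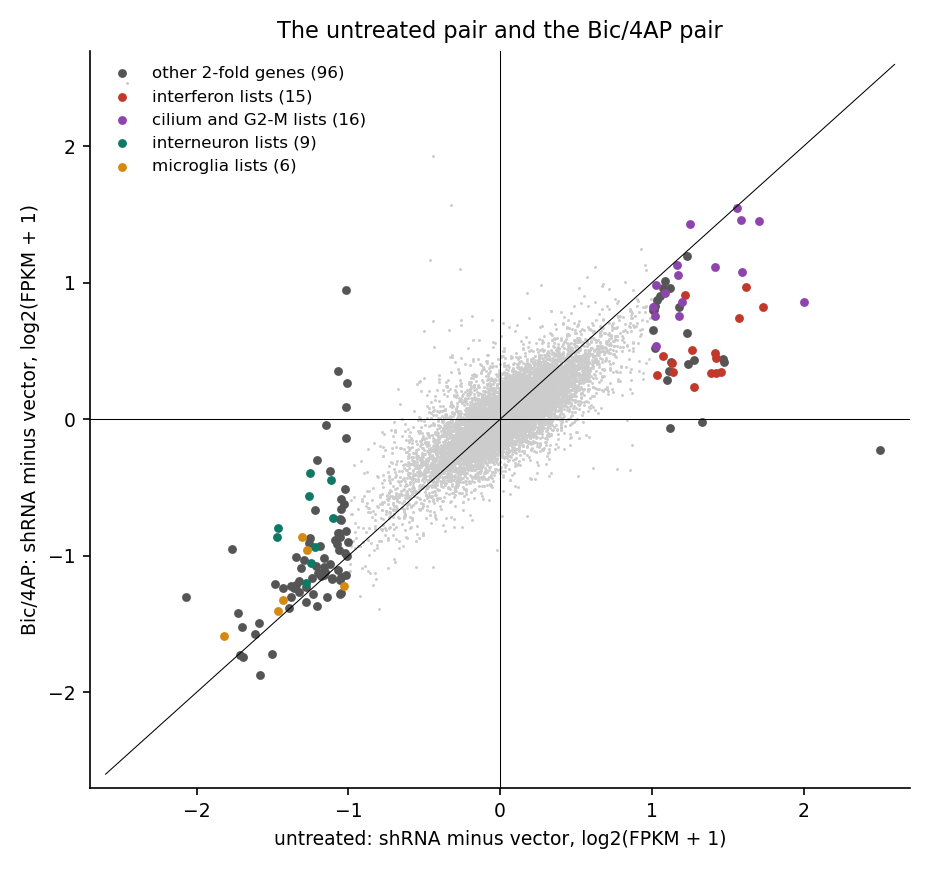
Difference with Bic/4AP (vertical axis) against the difference untreated (horizontal axis), both hairpin minus vector in log2(FPKM + 1). Each point is 1 of the 13295 genes compared untreated, at any level with Bic/4AP, within the limits of the axes. Genes 2-fold apart untreated at loci of at least 300 bases are coloured by list (interferon, cilium and mitosis, interneuron, microglia, or none of these). Many lower genes lie near the diagonal, with medians of -1.20 and -1.07, and all higher genes but Ccna1 below it, with medians of 1.20 and 0.75.

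Sequence in 3′ UTRs was examined next. As background, either strand of a hairpin can pair with other transcripts through its seed, positions 2 to 8 of that strand. Annotated 3′ UTRs (GENCODE mouse release 21, the longest of each gene, at least 50 bases) were found for 12646 of the 13295 genes. The word opposite the antisense seed of the sequence in the labels, ACAAACT, stood in 1620 of them (12.8%), and those had a median difference of 0.04 beside 0.05 for the others. AAGAACA, opposite the seed of the other strand, gave 0.04 and 0.05, and GGGACAA, from the bases that match Kdm6b, 0.03 and 0.05. None of these 3 words marked the lower genes: ACAAACT stood in 6 of the 86 lower genes with a UTR.

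All 14254 words of 7 bases found in at least 200 genes were then ranked by the median difference of their genes. The lowest was ACAAGTG, and the next 2, TACAAGT and CAAGTGA (medians of -0.05), overlap it. It was chosen on these untreated differences, so its values there are a description with no support of their own. The 11125 genes without it had a median of 0.06, the 1338 genes with 1 copy -0.06 and the 183 genes with 2 or more copies -0.14. The share below 0 was 38.9%, 58.0% and 72.7% in the same order. Genes 2-fold lower numbered 52, 28 and 6, and genes 2-fold higher 46, 3 and 0. In the Bic/4AP pair, which the choice did not use but where the same hairpin was present, the medians were 0.04, -0.07 and -0.14. The word thus stood in 34 of 86 lower genes (39.5%), 3 of 49 higher genes (6.12%) and 1521 of all 12646 (12.03%).

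Genes with the word had a lower untreated median than genes without it in each of 5 classes of UTR length, on the same differences that the choice used, so this too is a description only. In UTRs of 50 to 500 bases the medians were -0.17 with the word and 0.07 without, at 1000 to 2000 bases -0.10 and 0.06, and at 4000 or more -0.02 and 0.06. In the Bic/4AP pair, in the same order, they were -0.15 and 0.04, -0.12 and 0.04, and -0.03 and 0.06. The lower genes with the word had a median of -1.22 untreated and -1.12 with Bic/4AP, where 24 of 34 were again 2-fold lower (70.6%). The 52 without it had medians of -1.20 and -1.01, and 27 were again 2-fold lower (51.9%). The sites are shown for lower genes named above and for others of the lowest 15, with the word in capitals (5′ to 3′ on the transcript).
Snap29: atgtcacttattACAAGTGtataat
Scn3b: agagagcagggaACAAGTGacaaga
Araf: tattgagtacctACAAGTGttgaat
Cxcl14: ccagacttcattACAAGTGgctttt
Spock2: taaaaaatctgaACAAGTGttagac
Napb: tgcaacctttatACAAGTGacttag
Cacng2: gaaaaaggaaaaACAAGTGgtgatt
Snap29 holds 2 copies and Araf 3, of which 1 is shown for each. Spock2, a proteoglycan of the brain matrix, was at 116 FPKM with vector and 40.9 with the hairpin (-1.48). 

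In Kdm6b the word was absent from the 3′ UTR (0 copies) and stood once in the coding part, at positions 5169 to 5175.
Kdm6b coding: atcctgttcgttACAAGTGagaatg
None of 1738 mature mouse miRNAs of RefSeq (0) has a seed opposite this word. Beside the share of 12.03% over all genes, it was absent from all 23 interneuron peptide genes and all 51 cilium genes with a UTR, and from Nptxr, Lyz2, Scand1 and Scrt1. Genes with the word had longer UTRs (median 2605 bases) than genes without it (1107). The shares by list are not matched for UTR length, so absence from a list cannot be told apart from short UTRs. It stood in Gad1. In 3 lists the share was near that of all genes: 2 of 18 microglial receptor genes (11.1%), 6 of 47 antiviral effectors (12.8%) and 5 of 40 synaptic vesicle genes (12.5%), the last with a median of -0.36 against -0.16 for the rest. Of 19 astrocyte markers 5 held it (26.3%), with a median of -0.72 against 0.02. Of 14 genes of small RNA processing 6 held it (42.9%), with -0.04 against 0.20. Other lists with a high share went the other way. Sodium channels had it in 3 of 11 (27.3%), with -0.20 against -0.37, and calcium channels in 4 of 13 (30.8%), with -0.05 against -0.21. These untreated medians are from the pair on which the word was chosen. Leaving out the genes with the word or without an annotated UTR left 46 genes 2-fold higher and 52 lower.

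**Figure D5:**
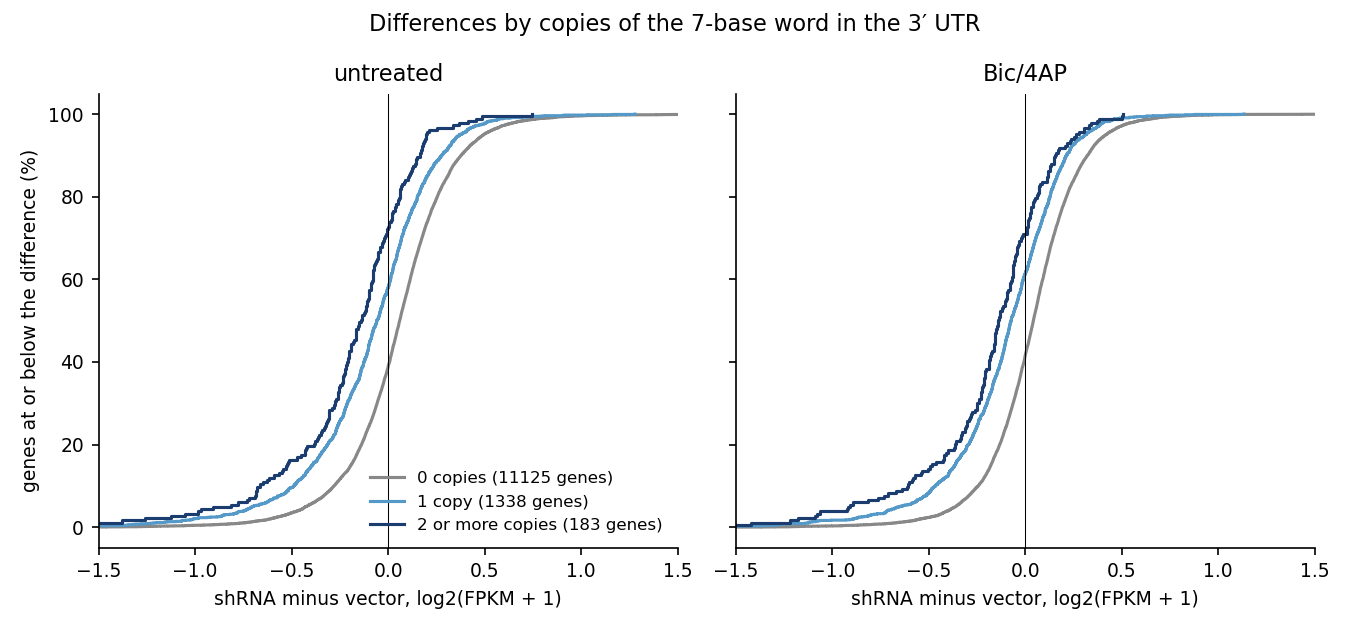
Cumulative share of genes (vertical axis, percent) against the difference hairpin minus vector in log2(FPKM + 1) (horizontal axis) for genes with 0, 1 and 2 or more copies of the word in the longest annotated 3′ UTR, in the untreated and the Bic/4AP pair. The curves shift to lower values with more copies in both panels, with untreated medians of 0.06, -0.06 and -0.14, and the word was chosen on the untreated pair.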

How the data were processed

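PolyA RNA of 4 cultures was sequenced with the TruSeq kit, 1 library per group, and the 2 untreated libraries were compared. The deposited tables hold FPKM computed by the authors, with a lower and an upper bound per row, and per the submitters' processing notes the tools were TopHat2 2.0.8b, Cufflinks 2.0.2 and CASAVA 1.8, and the build mm9. The annotation used is not given in the sources used here. The tables hold no counts, so read totals are unknown. From the width of the bounds, the relative depth of the untreated libraries was 1 with vector and 1.04 with the hairpin, and the median distance to the upper bound at an FPKM of 5 or more was 4.30% and 4.21%. Summed FPKM of the genes kept was 467726 and 468702, and 13019 and 13141 genes had an FPKM of at least 1.

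Rows of a symbol were summed (199 symbols had more than 1 row), and 42 failed and 727 small RNA symbols were left out. Differences used a pseudocount of 1 and no scaling, and no count model or test was used. The members and the 53 gene lists were chosen with earlier results of these data known, and so were the words searched. Named genes were Kdm6b and its relatives, the 15 largest and 15 smallest differences (loci of at least 300 bases, not listed at 0), the 4 largest and 4 smallest members and every 2-fold member of each list, and the 10 most abundant genes of the vector library. Other genes were chosen after their values were seen, and a few members of the lists are not reported here. The alternatives were pseudocounts of 0.1 and 5, a low-value filter of 5 or none, 3 scalings, small RNA kept, separate bounds, and the highest row of a symbol. Leaving out loci under 300 bases was another. Leaving out genes with the 3′ UTR word, a common sum over all symbols and the shortest UTR for that word were chosen after seeing the data. Python 3.11.15 was used with numpy 2.4.6, pandas 2.3.3, scipy 1.17.1 and matplotlib 3.10.9, and the code was tested on simulated data.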

Additional observations from a re-analysis of the deposited data

Results flagged for a closer look

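A few values differed in direction between the untreated and the Bic/4AP pair, with the authors' bounds separate in both pairs for single genes. The differences between the pairs were not tested, since each pair has 1 library per virus. Atp6v0c-ps2, the pseudogene of a proton pump subunit, differed by 2.50 untreated (13.9 FPKM with vector, 83.5 with the hairpin) and by -0.23 with Bic/4AP (182 and 156). Pcsk1, the convertase of peptide precursors, differed by -1.07 untreated (7.67 and 3.14) and by 0.36 with Bic/4AP (19.5 and 25.2). The median of the neuronal pentraxins and their cognate genes, a list of 9, was -0.29 untreated and 0.24 with Bic/4AP. The median of the late genes of neuronal activity was -0.30 untreated and 0.15 with Bic/4AP.
In all, 14 of 53 lists had medians of other sign in the 2 pairs, among them excitatory neuron identity genes (-0.12 untreated, 0.12 with Bic/4AP), calcium channels (-0.11 and 0.07) and cholesterol synthesis (-0.36 and 0.03).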

How the results depend on the processing

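No paired analysis was possible because each group has 1 library and the labels number no replicates. The limits were 1.5 times for a count and, for a list median, the median half-width of its members' bounds. Of 738 values under alternatives, 691 stayed within them and 47 moved. No median farther from 0 than its half-width turned sign (0), while 12 of 53 lists with smaller medians, at most 0.08 in size, turned sign or reached 0 under at least 1 alternative. A pseudocount of 0.1 gave 149 genes 2-fold higher and 149 lower, with medians of 0.85 for the antiviral effectors, 0.86 for multiciliated commitment and 1.05 for mitosis. A pseudocount of 5 gave 11 higher and 32 lower, with medians of 0.31, 0.26 and 0.30 for these lists, 0.36 for the motile cilium, -0.40 for interneuron peptides and -0.56 for GABA machinery. Keeping small RNA gave 117 genes higher and 160 lower, of which 64.98% had the same sign with Bic/4AP. An FPKM of at least 5 in either untreated library gave medians of 0.30 for multiciliated commitment and 1.004 for mitosis. That filter keeps members that reach 5 only with the hairpin, such as Pbk (1.17 with vector, 5.53 with the hairpin) and Cdk1 (2.09 and 5.92). The value for mitosis is thus partly set by the filter. Median-ratio scaling gave -0.68 for GABA machinery and the common sum over all symbols -0.56. Requiring separate bounds gave -0.67 for microglial complement and lysosome genes. Leaving out genes with the 3′ UTR word or no UTR gave 52 lower, the same sign for 99.0% and -0.32 for the microglial complement list. Of the 53 lists, 42 had 1 sign under the 4 scalings run and 11 did not. Kdm6b stayed between 39.0% and 42.7% of vector. With no counts, the precision is known only from the authors' bounds, whose median half-width was 0.14.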

Other observations

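Some gene groups outside the comparisons above were measured in the same pair and are given as values. Genes targeted by p53 had a median of 0.17 over 26 genes untreated and 0.05 with Bic/4AP. Untreated, 18 of 26 were above 0, beside 58.9% of all genes. Of the 26, 0 were 2-fold apart, beside 0.414% of all genes higher and 0.669% lower. Pro-apoptotic genes had a median of 0.14 over 25 genes and anti-apoptotic genes 0.13 over 13. Over 35 genes of TGF-beta, activin and BMP signalling the median was 0.09, and 1 was 2-fold higher: Tgfb3, a ligand of the family, at 9.41 FPKM with vector and 21.6 with the hairpin (1.12), and at 8.11 and 16.8 with Bic/4AP (0.96). Genes of small RNA processing, such as Dicer1 and the Argonautes, had a median of 0.10 over 14 genes. Core clock genes had a median of 0.01 over 16 genes, Notch pathway genes 0.04 over 17 and Wnt pathway genes 0.04 over 28, all with signs that depended on the scaling.

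Among the called genes in no list, chosen after their values were seen, a few belong to cilia by name or background. Ttc29, an axonemal protein, stood at 1.52 FPKM with vector and 4.05 with the hairpin (1.01), and Lrrc46 at 5.65 and 12.8 (1.05), and both were higher with Bic/4AP as well (0.65 and 0.91).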
